A study of Hordeum vulgare with 18 samples.

Results

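Of the 43050 annotated gene rows counted in leaf RNA of 3 barley genotypes, 2407 received more reads on the strand opposite to their annotation than on the annotated strand, summed over 18 libraries. The 200 of these with the largest summed antisense count are described here. They made up 0.465% of all rows and 8.31% of the 2407, and they held 60.7% of all antisense counts of the series, between 57.2 and 63.6% in single libraries. The loci were chosen by these measured counts, so that their high antisense signal is a description and was not tested. The genotypes were Golden Promise (GP), Laanaceur (M4) and Oussama (M5), grown under high nitrate (HN, 5 mM) or low nitrate (LN, 0.5 mM), with 3 libraries in each of the 6 groups and each library made from the leaves of few plants at 14 days after sowing. The labels name 15N before sampling for HN alone, whereas the study's methods describe 15N solutions at both nitrate supplies for its uptake experiments. Replicate numbers 1 to 4 mark the harvest in the labels, with 1 and 2 in November and 3 and 4 in the following spring, except that GP HN replicate 1 has no harvest label. GP HN and M4 HN hold the numbers 1, 2 and 4, GP LN holds 1, 2 and 3, M4 LN holds 1, 3 and 4, and both M5 groups hold 1, 2 and 3, so that nitrate and harvest were not fully crossed in GP and M4. The library titled M4 HN replicate 4 carries the LN treatment labels (0.5 mM) and was kept under its title.

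A strand-specific RNA library keeps the direction in which each fragment was transcribed, so that reads from a gene can be told from reads that run against it. Antisense reads over a gene can come from natural antisense transcripts, from a neighbouring gene whose end overlaps it, or from a gene model drawn on the wrong strand. Plant genomes hold many neighbouring genes that converge and share their last exons, and a read in the shared stretch is then sense for one gene and antisense for the other.

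The kit used here reads the reverse strand, so the reverse counts of a row are its sense reads and the forward counts its antisense reads. Antisense reads came to 5.55 to 6.17% of the stranded gene reads of a library. Sense reads on genes numbered 11823626 to 22281661 per library, and an antisense level is given as antisense reads per 1000000 sense reads (rpm), so that a level of 1 rpm stands for 11.8 to 22.3 reads. In bulk leaf RNA, fewer cells of a type and less RNA per cell cannot be told apart. The leaf label was not checked with marker genes, since no source used here pairs these gene IDs with names, and no gene product is named for the same reason. In GP HN replicate 1, 14 gene rows whose sense reads otherwise came from M4 stood at 16.5% of the M4 level, and in GP LN replicate 1, 19 rows otherwise read in M5 stood at 45.5% of the M5 level. The other GP libraries held at most 0.0784% of those levels. Unless said otherwise, the antisense fold changes of named loci that use GP libraries are given with and without these 2 libraries.

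The 200 loci lay on every chromosome by their IDs, with 28 on 1H, 28 on 2H, 34 on 3H, 31 on 4H, 25 on 5H, 31 on 6H, 20 on 7H and 3 unplaced. Per locus, the antisense reads summed to between 22505 and 391463 (median 39081), and the mean level lay between 68.3 and 1180 rpm (median 118.8). The antisense strand took between 50.5 and 100% of a locus's stranded reads (median 95.7%). It took over 99% at 66 loci and under 60% at 7. At 190 of the 200 loci the antisense count was the higher one in each of the 18 libraries, and the fewest libraries with this order was 10. For scale, the 15109 rows with at least 1000 sense counts had a median antisense share of 0.0828%. The last locus inside the rule was HORVU1Hr1G057180 with 22505 antisense and 7922 sense reads, and the first outside was HORVU1Hr1G090190 with 22489 and 855. The locus closest to an even split was HORVU1Hr1G078490 (50.5% antisense). Among rows with at least 22505 antisense reads, HORVU6Hr1G058570 was the nearest on the other side (46.4%).

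Most of these loci lay across from another annotated gene, and most of their antisense reads were also the sense reads of that gene. This can be read from the deposited columns themselves. A read that lies on 2 genes of opposite strands is assigned in each stranded count, but is dropped as ambiguous when strand is ignored, so the sum of both stranded counts minus the unstranded count gives the reads a row shares with an opposite row. They came to at least 1% of the antisense reads at 175 of the 200 loci (87.5%), which held 86.6% of the antisense reads of all 200. At the other 25 loci (12.5%) they came to less, and to 0 at 23 of them. Over all gene rows, 7.71% had any such reads. Among the 200 rows with the most antisense reads but no excess over sense, 180 had them.

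At 152 of the 200 loci a single other row had lost exactly the same number of reads in each of the 18 libraries, and it was the next row by ID at 150 of them. One of the 152, HORVU2Hr1G119760, is among the 25 loci above, with 75 shared reads. A further 7 loci matched the sum of 2 such rows, 3 shared a row with another match, and 15 with lost reads could not be assigned to 1 or 2 rows. The matched row was read mainly in its own sense in 152 of 152 cases. The antisense count of the locus came to at least 99% of the sense count of its matched row at 90 loci, at least 90% at 116 and at least 50% at 147. As a lower bound, with all sense reads of the locus taken as shared, the median locus shared 97.5% of its antisense reads with an opposite row. This bound was at least 90% at 136 loci and at least 50% at 168.

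**Figure D1:**
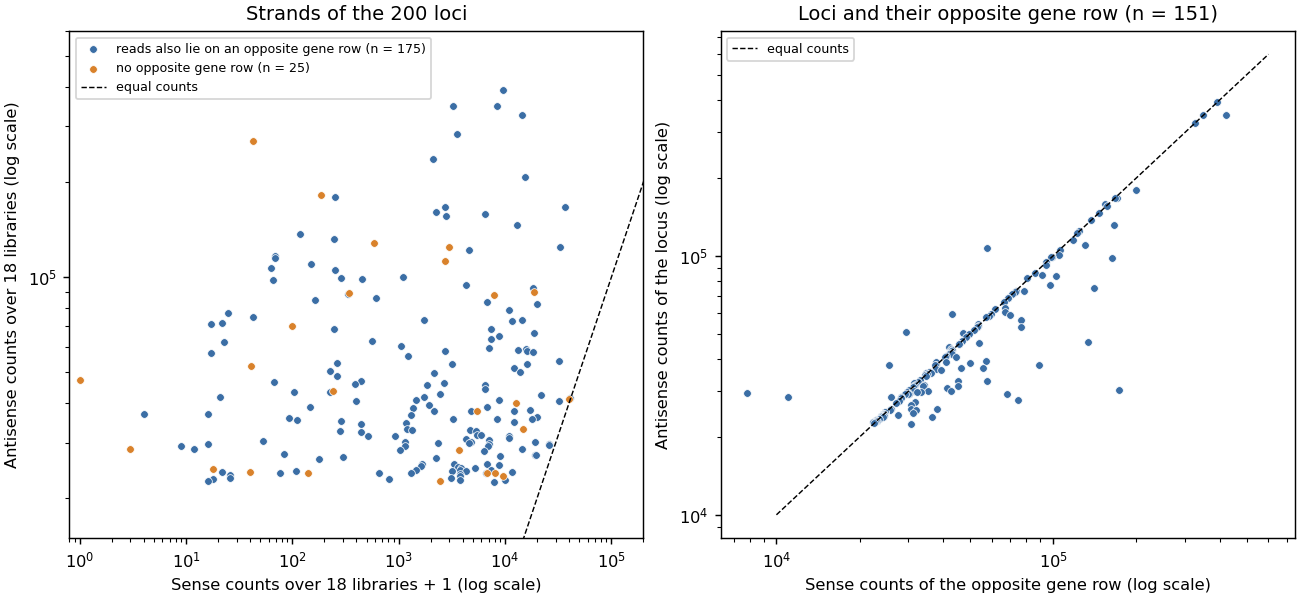
Left, antisense counts against sense counts plus 1 for the 200 loci, summed over 18 libraries on log axes, coloured by whether their reads also lie on an opposite gene row (175) or not (25). Right, antisense counts of 151 loci against the sense counts of the 1 opposite row they matched. The dashed lines mark equal counts, and most points on the right lie on or just under the line.

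HORVU3Hr1G075850, the locus with the most antisense reads, had 391463 of them against 9507 sense reads. Its matched row HORVU3Hr1G075870 had 391462 sense reads. Both readouts were therefore nearly one set of reads, with a level between 933.9 and 1552 rpm in the 18 libraries. HORVU7Hr1G002200 had 349205 antisense reads, and HORVU7Hr1G002210 the same number of sense reads. HORVU5Hr1G071910 had 348852 antisense reads, or 82.8% of the sense reads of HORVU5Hr1G071920. HORVU7Hr1G058950 (325528 reads) was paired with HORVU7Hr1G058940. HORVU6Hr1G090150 (284442) spanned 2 opposite rows, HORVU6Hr1G090160 and HORVU6Hr1G090170, and the antisense reads were 100.03% of their summed sense reads. HORVU5Hr1G008990 (179853) was paired with HORVU5Hr1G008980. For HORVU5Hr1G002120 (237501) and HORVU5Hr1G097860 (207033) the shared reads were found but could not be assigned to a row.

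At the other end, some opposite rows carried far more or far fewer reads than the locus. Over the 151 matched loci with at least 1% shared reads, the antisense count came to between 17.5 and 379% of the sense count of the row across from it. The only 2 loci adjacent by ID, HORVU1Hr1G078480 and HORVU1Hr1G078490, lay across from each other. HORVU1Hr1G078480 had 40773 antisense reads and HORVU1Hr1G078490 had 40684 sense reads, while HORVU1Hr1G078490 had 41490 antisense reads, 99.9% of the summed sense reads of HORVU1Hr1G078480 and HORVU1Hr1G078500. Both loci were read on both strands, with antisense shares of 55.6 and 50.5%.

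None of the 200 loci is among the 54 gene IDs that the study names, and 0 of those 54 had more antisense than sense reads (median antisense share 0.0913%). HORVU2Hr1G028520 lay across from 1 of them. Its 88844 antisense reads matched HORVU2Hr1G028510 and the named HORVU2Hr1G028530 together, at 98.1% of their summed sense reads.

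The 25 loci without an opposite gene row are those with under 1% of their antisense reads on another annotated gene. They ranged from 22623 to 269901 antisense reads, with a median antisense share of 97.7% and a median level of 125.3 rpm, against 116.7 for the 175 loci with shared reads. Together they took 4646 to 5469 rpm in a library. HORVU4Hr1G065520 had 269901 antisense and 42 sense reads. Its level was 968.7, 917.5 and 746.4 rpm in GP HN, 645.4, 731.3 and 688.7 in GP LN, 841.4, 844.9 and 680.0 in M4 HN, 961.3, 563.3 and 759.0 in M4 LN, 786.3, 884.2 and 910.1 in M5 HN and 1031, 939.5 and 896.2 in M5 LN. Within M4 and M5 the 2 nitrate supplies overlapped, while in GP each HN library lay above each LN library. All GP LN libraries lay below all M5 libraries, a comparison picked from the values and not tested. In the tests below the locus was not called for nitrate in GP. It was not called for M5 against GP either (edgeR quasi-likelihood adjusted p = 0.232).

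HORVU3Hr1G092840 (182404 antisense and 185 sense reads) lay between 451.6 and 687.3 rpm, with a coefficient of variation (CV) over the 18 libraries of 9.56%. HORVU1Hr1G053670 had 47425 antisense reads and 0 sense reads, the only locus with none. Its level varied more widely, with a CV of 44.9%. The highest library was M4 LN replicate 3 at 257.4 rpm and the lowest M4 LN replicate 4 at 54.3, so that 1 group held both ends of the range. HORVU0Hr1G016250 was read on both strands alike, with 41169 antisense and 40238 sense reads and more antisense than sense in 10 of 18 libraries, although no opposite gene row shared any of its reads.

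**Figure D2:**
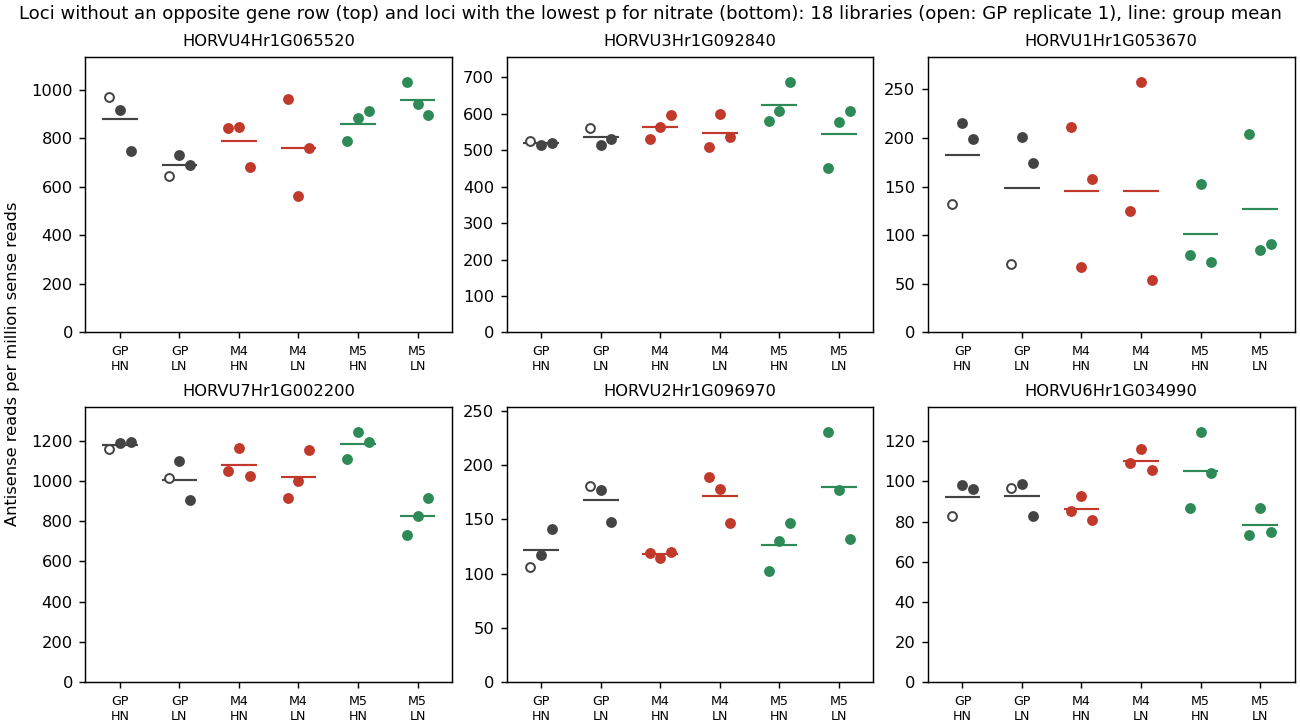
Antisense reads per 1000000 sense reads in each of the 18 libraries for 3 loci without an opposite gene row (top) and 3 of the loci with the lowest p for nitrate (bottom), by genotype and nitrate supply, with the group mean as a line and GP replicate 1 as open points. HORVU1Hr1G053670 spreads from 54.3 to 257.4 with no order by group, while HORVU7Hr1G002200 in M5 lies between 1113 and 1246 under HN and between 731.1 and 914.5 under LN.

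Over the 200 loci, the CV of the level across the 18 libraries ran from 6.05 to 108% (median 15.3%). No locus was at 0 over all libraries of a genotype. Of the 200, 84 had their highest mean in M4, 66 in M5 and 50 in GP, with median means of 125.3, 119.4 and 115.2 rpm. Genotype means were more than 2-fold apart at 7 loci and more than 10-fold apart at 1.

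Whether the genotypes differed was tested on the antisense counts of the 2263 rows with a level above 1 in at least 3 libraries, with edgeR's quasi-likelihood test and the Benjamini-Hochberg adjusted p under 0.05 over these rows. All 200 loci passed this filter. Between M4 and GP 26 loci were called (13%), of which 22 were higher and 4 lower in M4, while 16.4% of all rows tested were called. Between M5 and GP 18 were called (9%), 13 higher and 5 lower in M5, against 15.2% of all rows. Between M4 and M5 17 were called (8.5%), 10 higher and 7 lower in M4, against 13.4% of all rows. The share of the loci was below that of all rows in each comparison, a difference that was not tested. In M4 against GP, 11% were called higher, where all rows gave 8.09%, and 2% lower, where they gave 8.31%. The rows called higher and lower were 8.17 and 6.98% of all rows for M5 against GP and 6.1 and 7.29% for M4 against M5. With TMM factors of the antisense counts, the M4 and M5 split was 14 higher and 4 lower, and with TMM factors of the sense counts 12 and 4. At an unadjusted p under 0.05 there were 49, 37 and 41 of the 200 loci, beside 626, 539 and 564 of all 2263 rows.

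In all, 37 loci were called in at least 1 of these 3 comparisons, 0 in all of them and 163 in none. The calls of all rows were not joined over the comparisons in this way. The comparisons share libraries in pairs. Differences were mostly small, with a median size of log2 fold change of 0.51, 0.47 and 0.51 among the called loci and 4 above 1 in each comparison. The median over all 200 loci was 0.03, 0.01 and 0.00, and over all rows tested -0.03, 0.01 and -0.05. Every library of 1 genotype lay above every library of the other at 11, 4 and 12 loci, of which 11, 2 and 8 were also called. How many of all rows tested were separated in this way was not counted, so this is not a trait particular to the loci. Without both GP replicate 1 libraries, 29, 20 and 18 loci were called. The count for M4 against GP was 15 without GP HN replicate 4 and 17 without GP LN replicate 3. That for M5 against GP was 10 without GP HN replicate 2, 11 without GP LN replicate 2 and 9 without GP LN replicate 3. Without the replicate block, the count for M4 against M5 was 27. These counts are of the 200 loci alone, and do not show whether the calls of all rows shifted alike.

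**Figure D3:**
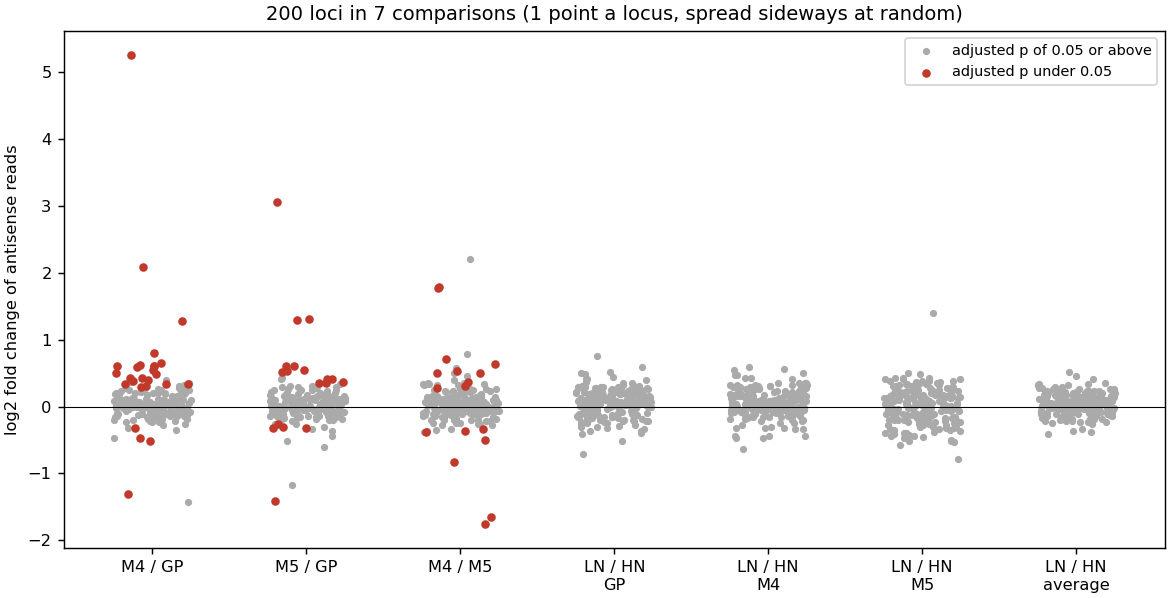
Fitted log2 fold change of the antisense reads of the 200 loci in the 3 genotype comparisons, in LN against HN within each genotype and in their average, 1 point a locus. Red points are the 26, 18 and 17 loci called between genotypes. No point is red in the comparisons of nitrate supply.

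The widest difference between genotypes was that of HORVU3Hr1G002550, which had 32624 antisense and 282 sense reads. In M4 its antisense level was 201.2, 210.5 and 197.6 rpm under HN and 343.6, 180.5 and 207.6 under LN. In M5 it was 32.1, 37.7 and 55.5 under HN and 69.8, 58.8 and 26.7 under LN. In GP it was 34.1, 0.588 and 0.835 under HN and 33.2, 1.0 and 0.824 under LN. The 2 high GP values are those of GP HN replicate 1 and GP LN replicate 1, the libraries in which rows of other genotypes were read, and their part in this locus was not tested. The other 4 GP libraries held 10 to 22 reads each, below every M4 and M5 library.

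For HORVU3Hr1G002550 the log2 fold change of M4 against GP was 5.26 (SE 0.86, edgeR quasi-likelihood adjusted p = 0.000441), and 8.02 (SE 0.38, adjusted p = 5.72e-09) without both GP replicate 1 libraries. That of M5 against GP was 3.06 (SE 0.84, adjusted p = 0.0214), and 5.79 without both (adjusted p = 1.08e-07). This call was lost without GP HN replicate 2 or 4 or GP LN replicate 2 or 3, with an adjusted p between 0.0502 and 0.0726, without the replicate block (1.96, adjusted p = 0.104), with harvest season as the block (2.26, 0.0622) and with only the 12 libraries of both genotypes (3.34, 0.0573). Between M4 and M5 the locus was not called in the fit of all libraries (log2 fold change 2.20, SE 0.76, adjusted p = 0.0713), although the 2 genotypes did not overlap. It was called in 8 of 28 alternatives, among them on leaving out GP HN replicate 1, GP LN replicate 1 or both, with an adjusted p of 0.0298, 0.0183 and 1.23e-05. The sense reads of the locus were few, between 0.232 and 2.19 rpm in all libraries. At least 99.9% of its antisense reads were shared with an opposite gene, which could not be assigned.

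HORVU1Hr1G072210 was also highest in M4. Its level was 251.5, 188.7 and 133.7 rpm in M4 HN and 237.4, 237.1 and 149.1 in M4 LN. In GP it was 62.2, 49.4 and 24.8 under HN and 127.5, 35.3 and 26.2 under LN, where GP LN replicate 1 was the highest. In M5 it was 93.7, 168.7 and 107.4 under HN and 111.5, 135.2 and 150.9 under LN, between both others and overlapping them. The log2 fold change of M4 against GP was 2.09 (SE 0.30, edgeR quasi-likelihood adjusted p = 0.000163), 2.73 without both GP replicate 1 libraries. M5 was higher than GP by 1.31 (SE 0.31, adjusted p = 0.00864), 1.83 without them, and this call was lost in a fit of only the 12 libraries of both genotypes (1.31, adjusted p = 0.0507). The sense reads of the gene across from it, HORVU1Hr1G072220, gave the same fold change of M4 against GP, 2.09 (adjusted p = 0.000593). Both counts come in large part from the same reads, so this is not a second measurement.

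**Figure D4:**
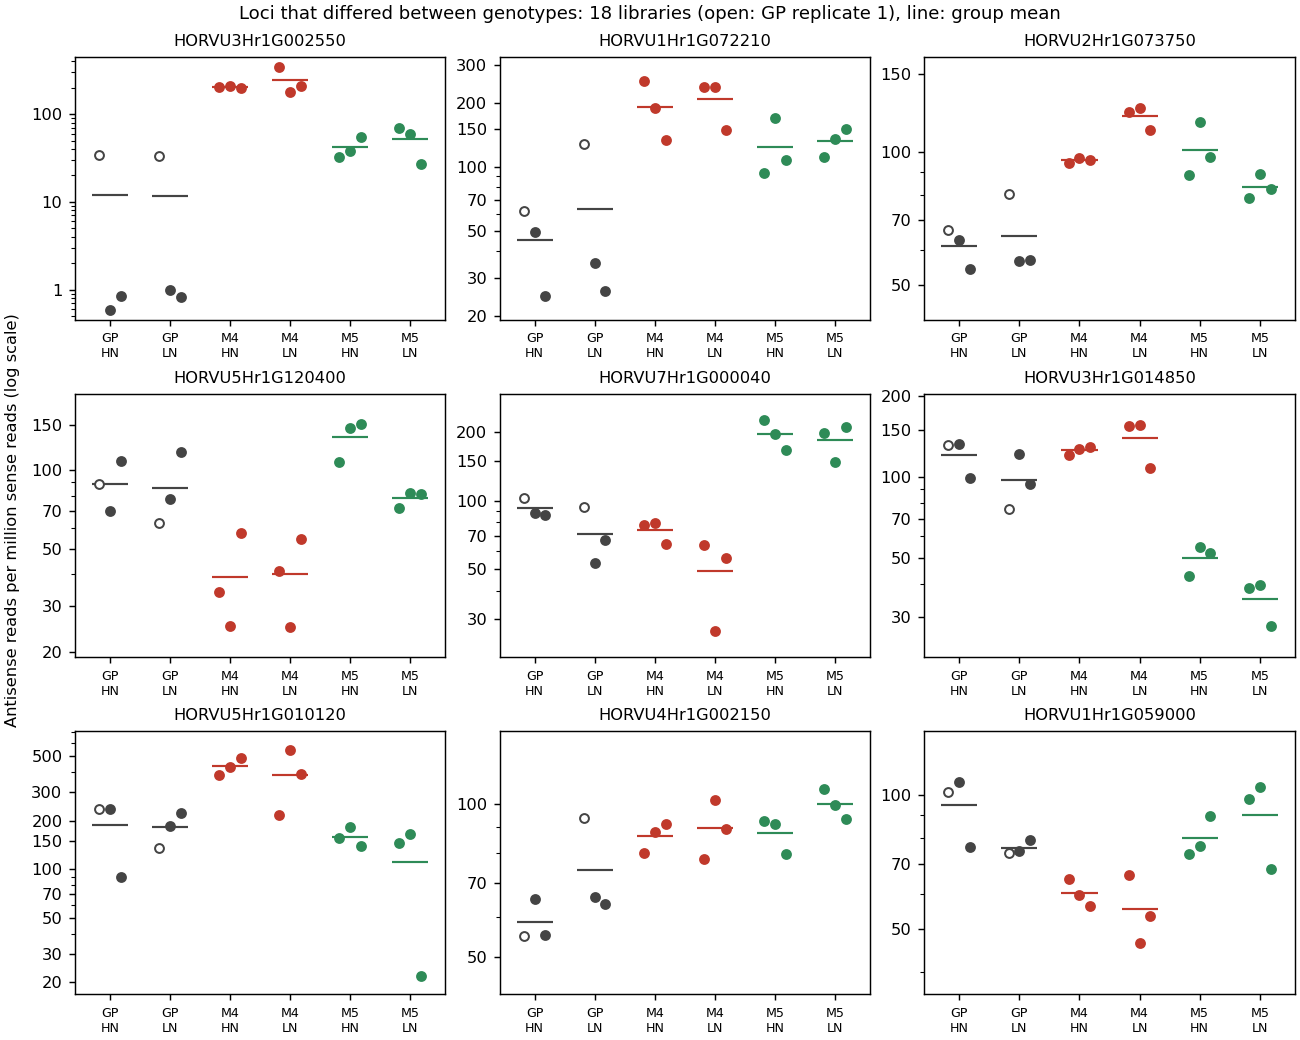
Antisense reads per 1000000 sense reads, on log axes, in the 18 libraries for 9 loci with a called genotype difference, by group, with the group mean as a line and GP replicate 1 as open points. HORVU3Hr1G002550 lies between 180.5 and 343.6 in M4, between 26.7 and 69.8 in M5 and at 1.0 or less in 4 GP libraries, and HORVU3Hr1G014850 lies lowest in M5.

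HORVU2Hr1G073750 was higher in M4 and in M5 than in GP. Its level was 66.7, 63.1 and 54.3 rpm in GP HN, 80.1, 56.7 and 56.9 in GP LN, 94.5, 96.9 and 95.9 in M4 HN and 122.9, 125.7 and 111.7 in M4 LN. All M4 libraries lay above all GP libraries. On the log2 scale the difference was 0.80 for M4 against GP (SE 0.11, edgeR quasi-likelihood adjusted p = 8.3e-05) and 0.53 for M5 against GP (SE 0.11, adjusted p = 0.00283), and 0.96 and 0.68 without both GP replicate 1 libraries. In M5 it stood between 78.6 and 116.9 rpm (median 88.9), and only GP LN replicate 1 among the GP libraries reached into that range.

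HORVU5Hr1G120400 was lower in M4 than in both other genotypes. It was at 34.2, 25.2 and 57.3 rpm in M4 HN and at 41.1, 24.95 and 54.4 in M4 LN. GP HN gave 88.8, 69.7 and 108.4, GP LN 62.6, 77.6 and 117.6, M5 HN 107.3, 145.0 and 151.1 and M5 LN 71.7, 82.0 and 81.1. No M4 library reached the lowest GP or M5 library. M4 differed by -1.31 on the log2 scale from GP (SE 0.18, edgeR quasi-likelihood adjusted p = 9.3e-05), or by -1.37 without both GP replicate 1 libraries, and by -1.65 from M5 (SE 0.20, adjusted p = 2.7e-05). Its matched gene HORVU5Hr1G120390 fell by 1.31 on the log2 scale in the sense counts of M4 against GP (adjusted p = 0.000309). Both counts come in large part from the same reads, so this is not a second measurement.

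HORVU3Hr1G014850 was lower in M5. Its level was 42.6, 54.8 and 51.8 rpm in M5 HN and 38.4, 39.5 and 27.7 in M5 LN, while the GP libraries lay between 76.0 and 132.7 (median 110.6) and the M4 libraries between 108.2 and 156.7 (median 128.3). M5 overlapped with neither. On the log2 scale the difference was -1.41 for M5 against GP (SE 0.13, edgeR quasi-likelihood adjusted p = 3.8e-06), or -1.43 without both GP replicate 1 libraries, and 1.78 for M4 against M5 (SE 0.14, adjusted p = 2.8e-07). The sense reads of the locus itself, 7.69 to 23.5 rpm, gave a log2 fold change of 0.03 for M5 against GP (adjusted p = 0.962). The sense reads of the gene across from it, HORVU3Hr1G014860, are in large part the antisense reads of the locus. Their fold changes are therefore not a second measurement. They were -1.41 for M5 against GP (adjusted p = 1.2e-05) and 1.78 for M4 against M5 (adjusted p = 1.6e-06).

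HORVU7Hr1G000040 rose in M5 on both strands. The antisense level was 227.2, 196.6 and 168.1 rpm in M5 HN and 198.8, 147.4 and 211.4 in M5 LN, against 53.2 to 102.5 in GP (median 87.4) and 26.5 to 79.9 in M4 (median 64.0). Every M5 library lay above every GP and M4 library. The log2 fold change was 1.29 for M5 against GP (SE 0.17, edgeR quasi-likelihood adjusted p = 8.5e-05), or 1.33 without both GP replicate 1 libraries, and -1.76 for M4 against M5 (SE 0.19, adjusted p = 8.2e-06). The sense reads were at 54.6 to 88.1 rpm in M5, at no more than 0.141 in M4 and at no more than 0.206 in GP, apart from GP LN replicate 1 at 35.1. In that library 19 other rows otherwise read in M5 were also found, and its part in this value was not tested. The sense fold change of M5 against GP was also called (log2 fold change 6.49, adjusted p = 0.00145), a fitted value that depends on the prior count where levels are near 0.

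HORVU5Hr1G010120 was higher in M4 than in M5. Its level was 384.3, 430.1 and 488.2 rpm in M4 HN and 216.4, 548.3 and 389.2 in M4 LN, and 156.1, 181.2 and 140.0 in M5 HN and 145.0, 165.6 and 22.0 in M5 LN. The lowest M4 library lay above the highest M5 library, and M5 LN replicate 3 stood far below the rest of M5. M4 was higher by 1.79 on the log2 scale (SE 0.41, edgeR quasi-likelihood adjusted p = 0.00701), and the call was lost without M4 LN replicate 3 (1.42, adjusted p = 0.0573). Its sense reads moved alike (log2 fold change 1.51, adjusted p = 0.0236), with M5 LN replicate 3 again lowest at 7.31 rpm. The antisense reads were also called higher in M4 than in GP (1.28, SE 0.40, edgeR quasi-likelihood adjusted p = 0.0395). That call was lost in 12 of 28 alternatives, among them without both GP replicate 1 libraries (1.34, adjusted p = 0.0621).

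HORVU6Hr1G084510 and HORVU7Hr1G028150 differed less. HORVU6Hr1G084510 lay between 239.7 and 293.8 rpm in M4 (median 248.4) and between 166.3 and 204.0 in M5 (median 186.7), with a log2 fold change of 0.50 (SE 0.09, edgeR quasi-likelihood adjusted p = 0.000962). Against GP, its M5 level was called lower (-0.26, adjusted p = 0.0475) and its M4 level was not called (0.24, adjusted p = 0.0640). These fold changes against GP were not rerun under the alternatives. HORVU7Hr1G028150 lay between 48.0 and 83.3 in M4 (median 76.9), between 85.2 and 148.9 in M5 (median 126.4) and between 87.1 and 123.1 in GP (median 94.9). No M4 library of it overlapped with the other genotypes. Its log2 fold change was -0.83 for M4 against M5 (SE 0.16, edgeR quasi-likelihood adjusted p = 0.00195) and -0.47 for M4 against GP (SE 0.15, adjusted p = 0.0417). The call against GP was lost without GP HN replicate 1 or 4, GP LN replicate 2 or 3, M4 HN replicate 1, 2 or 4, or M4 LN replicate 3 or 4 (adjusted p 0.0620 to 0.125), without both GP replicate 1 libraries (-0.45, adjusted p = 0.0871), and with TMM factors of the antisense or the sense counts (adjusted p 0.0653 and 0.0608).

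HORVU4Hr1G002150 was the only locus called in opposite directions on its 2 strands. Its antisense level was 92.6, 91.1 and 79.8 rpm in M5 HN and 106.8, 99.5 and 93.6 in M5 LN, against 55.1, 65.1 and 55.4 in GP HN and 93.6, 65.6 and 63.6 in GP LN. GP LN replicate 1 reached the M5 range and the other GP libraries lay below it. M5 was higher than GP by 0.52 on the log2 scale (SE 0.12, edgeR quasi-likelihood adjusted p = 0.00596), and by 0.61 without both GP replicate 1 libraries. The sense reads, 19.4 to 29.1 rpm in M5 and 29.3 to 35.3 in GP, gave -0.34 (adjusted p = 0.0481). This sense call lay just under the threshold and was not rerun under the alternatives. At least 66.9% of its antisense reads were shared with HORVU4Hr1G002140, whose own sense reads gave 0.50 (adjusted p = 0.0064). The antisense reads of the locus were also called higher in M4 than in GP (0.42, adjusted p = 0.0191). Without both GP replicate 1 libraries this was 0.53 (adjusted p = 0.00609), and the call was lost in 7 of 28 alternatives.

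Of all rows tested, 16.4, 15.2 and 13.4% were called for M4 against GP, M5 against GP and M4 against M5. Among the 25 loci without an opposite gene row, 2, 2 and 1 were called, and the shares were not compared by a test. Called loci not given by the rule for naming are named here after their values were seen. HORVU1Hr1G059000, with 24769 antisense and 17 sense reads, was lower in M4, at 64.8, 59.8 and 56.2 rpm under HN and 66.3, 46.5 and 53.5 under LN. GP stood between 74.1 and 107.0 (median 77.9) and M5 between 68.4 and 104.3 (median 83.4), and neither overlapped with M4. The log2 fold change was -0.52 against GP (SE 0.12, edgeR quasi-likelihood adjusted p = 0.00688), or -0.55 without both GP replicate 1 libraries (adjusted p = 0.0205), and -0.51 against M5 (SE 0.13, adjusted p = 0.0138), and the call against M5 was lost without M4 HN replicate 2 or M4 LN replicate 3 (adjusted p 0.0690 and 0.0688).

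HORVU2Hr1G119760 was higher in M5 than in GP, at 89.7, 110.7 and 92.4 rpm in M5 HN and 76.5, 82.4 and 87.5 in M5 LN against 55.8, 58.9 and 53.4 in GP HN and 82.8, 62.7 and 43.4 in GP LN. GP LN replicate 1 gave the highest GP value and overlapped with M5. M5 was higher by 0.61 on the log2 scale (SE 0.13, edgeR quasi-likelihood adjusted p = 0.00329) and 0.77 without both GP replicate 1 libraries. HORVU3Hr1G035590 was called higher than GP in M4 (0.38, adjusted p = 0.0407) and in M5 (0.41, adjusted p = 0.0299). Leaving out GP HN replicate 1, 2 or 4, GP LN replicate 2 or 3, M4 HN replicate 1, 2 or 4, M4 LN replicate 3 or 4 or M5 HN replicate 1 ended the first call (adjusted p 0.0522 to 0.148), and leaving out GP HN replicate 1, 2 or 4, GP LN replicate 2 or 3, M5 HN replicate 1 or 2 or M5 LN replicate 3 ended the second (0.0580 to 0.116). Without both GP replicate 1 libraries it was called in both, at 0.52 and 0.54. It had 23478 antisense and 9557 sense reads.

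HORVU1Hr1G005100 spread widely in each genotype. Its level ran from 23.5 rpm in M4 LN replicate 1 to 378.6 in GP LN replicate 3, with 99.6, 334.3 and 344.8 in GP HN, 141.3, 277.6 and 378.6 in GP LN, 52.2, 179.0 and 83.8 in M4 HN, 23.5, 243.0 and 46.0 in M4 LN, 100.3, 51.0 and 56.8 in M5 HN and 317.4, 85.5 and 122.3 in M5 LN. All genotypes overlapped, and the CV was 73.4%, the second highest of the 200. The log2 fold change of M4 against GP was -1.42 (SE 0.53, edgeR quasi-likelihood adjusted p = 0.0865), so the locus was not called. It was called without both GP replicate 1 libraries (-1.78, adjusted p = 0.0377), without M4 LN replicate 3 (-2.19, adjusted p = 0.00833) with M5 LN replicate 1 left out (-1.46, 0.0293), with only the 12 libraries of both genotypes (-1.54, 0.00194), by the likelihood ratio test (0.0296) and without the filter on low counts. HORVU1Hr1G005110, across from it, had 53703 sense reads for its 53720 antisense reads.

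On the sense strand, 153 of the 200 loci passed the same filter. Of these 153, 13 were called between M4 and GP, 13 between M5 and GP and 15 between M4 and M5. Over all 19021 rows tested on that strand, 2953, 2363 and 2821 were called (15.5, 12.4 and 14.8%). Of the 26, 18 and 17 loci called on the antisense strand, 19, 14 and 13 had a sense test, and 0, 3 and 3 of these were called on both strands. For the 151 loci matched to 1 opposite row, the antisense fold change could be set beside the sense fold change of that row. Both come in large part from the same reads. Their log2 fold changes differed by a median of 0.0032, 0.0024 and 0.0022 in the 3 genotype comparisons, and by less than 0.1 at 149, 147 and 148 of 151 loci.

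Nitrate supply was compared within each genotype. Under edgeR's quasi-likelihood test 0 of the 200 loci were called between LN and HN in GP, in M4 and in M5, where 0.0442, 0 and 0.177% of all rows tested were called (0.0884% in each direction in M5). At an unadjusted p under 0.05 there were 17, 16 and 33 of the 200 loci, beside 181, 150 and 162 of all 2263 rows. The edgeR likelihood ratio test called 0 in each genotype, and DESeq2 called 0, 0 and 2. On the average of the 3 genotypes, 0 loci were called by the quasi-likelihood test (0.177% of all rows, 0.0884% in each direction). Its unadjusted p was under 0.05 at 45 of the 200 loci and at 319 of all 2263 rows. On this average the likelihood ratio test called 1 locus and DESeq2 called 4. The counts of these 2 other tests are of the 200 loci alone, so they do not mark a response particular to the loci. The groups did not overlap at 26 loci in GP (15 higher and 11 lower under LN), 17 in M4 (13 and 4) and 35 in M5 (15 and 20), and 0 of these were called. Such non-overlap was not counted over all rows tested, so these numbers alone do not mark a response to nitrate. The median log2 fold change of the 200 loci was 0.08 in GP, 0.04 in M4 and 0.01 in M5, beside 0.06, 0.00 and 0.11 over all rows. TMM factors of the sense counts moved the median of all rows in M5 from 0.11 to -0.02 and that of the 200 loci from 0.01 to -0.11. Without both GP replicate 1 libraries the calls were also 0 in each genotype, and without M4 HN replicate 4, whose treatment label differs from its title, 0 in M4.

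HORVU7Hr1G002200 had the lowest p in M5 and was the second most abundant of the 200. In M5 its level was 1113, 1246 and 1193 rpm under HN and 731.1, 826.7 and 914.5 under LN, so that the 2 groups did not overlap. In GP it was 1160, 1191 and 1194 under HN and 1014, 1102 and 907.7 under LN, again without overlap. In M4 it was 1052, 1165 and 1028 under HN and 913.7, 1001 and 1153 under LN, with overlap. The log2 fold change was -0.52 in M5 (SE 0.10, edgeR quasi-likelihood adjusted p = 0.0793) and -0.27 on average (SE 0.06, adjusted p = 0.123). The M5 value passed the threshold without GP LN replicate 3 (adjusted p = 0.0394) or M5 LN replicate 3 (-0.63, 0.0266) and under DESeq2 (adjusted p = 0.00321), and the average passed on leaving out M5 LN replicate 3 (-0.29, 0.0342) and under DESeq2 (0.0181). Both also passed without the filter on low counts (0.00137 and 0.0176), while without both GP replicate 1 libraries the average stayed at -0.27 (adjusted p = 0.379).

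HORVU2Hr1G096970 had the lowest p on average over the genotypes. It was at 106.4, 117.2 and 141.4 rpm in GP HN and 180.5, 177.0 and 147.3 in GP LN, at 119.2, 114.7 and 120.0 in M4 HN and 189.0, 178.0 and 146.8 in M4 LN, and at 102.3, 129.7 and 146.3 in M5 HN and 230.9, 176.8 and 132.1 in M5 LN. LN exceeded HN without overlap in GP and M4, while M5 LN replicate 3 fell within the HN range. The average log2 fold change was 0.52 (SE 0.12, edgeR quasi-likelihood adjusted p = 0.116), and 0.56 with M5 LN replicate 3 left out (adjusted p = 0.0317). It was called in 6 of 27 alternatives, the others being no replicate block (0.51, adjusted p = 0.0342), harvest season as the block (0.0399), the likelihood ratio test (0.0125), DESeq2 (0.00518) and no filter on low counts (1.4e-05). Without both GP replicate 1 libraries it was 0.47 (adjusted p = 0.379).

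The other loci with the lowest p had a higher adjusted p. In GP, HORVU7Hr1G101230 was at 49.9, 55.5 and 48.9 rpm under HN and 97.6, 68.0 and 98.8 under LN (log2 fold change 0.76, SE 0.22, edgeR quasi-likelihood adjusted p = 0.499). HORVU5Hr1G114990 in GP was at 241.0, 232.0 and 312.4 under HN and 351.1, 417.3 and 285.5 under LN (0.48, SE 0.16, the same adjusted p), with overlap. Without both GP replicate 1 libraries these were 0.61 and 0.44, and without the filter on low counts the first was called (adjusted p = 0.0165). HORVU3Hr1G055910 in M5 was at 288.3, 262.2 and 274.9 under HN and 379.5, 358.9 and 335.8 under LN, without overlap (0.38, SE 0.09, adjusted p = 0.236), and was called by DESeq2 (0.38, adjusted p = 0.00358).

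In M4, HORVU4Hr1G011100 and HORVU6Hr1G034990 had the lowest p. HORVU4Hr1G011100 was at 72.4, 87.8 and 88.6 rpm under HN and 109.4, 99.6 and 123.1 under LN (log2 fold change 0.51, SE 0.12, edgeR quasi-likelihood adjusted p = 0.605). HORVU6Hr1G034990 was at 85.2, 92.9 and 81.0 under HN and 109.1, 116.4 and 105.8 under LN (0.42, SE 0.12, adjusted p = 0.616). Both had LN above HN in every M4 library. In M5, HORVU6Hr1G034990 was at 86.8, 124.8 and 104.4 under HN and 73.5, 86.6 and 74.9 under LN (-0.42, SE 0.12, adjusted p = 0.379), the other way round.

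Whether the response to nitrate differed between genotypes was tested with 1 test of 2 degrees of freedom. By edgeR's quasi-likelihood test 0 of the 200 loci were called (0.0442% of all rows). Its unadjusted p was under 0.05 at 16 loci, beside 97 of all 2263 rows. The likelihood ratio test called 1 locus and DESeq2 called 2, again counted over the 200 loci alone. The lowest adjusted p were those of HORVU4Hr1G011100 (0.373) and HORVU6Hr1G034990 (0.511). Between spring and November harvests 0 of the 200 loci were called by edgeR's quasi-likelihood test (0% of all rows), and 0 by the likelihood ratio test and DESeq2. The unadjusted p of the first test was under 0.05 at 21 loci, beside 194 of all 2263 rows. The median log2 fold change of the loci was -0.05 between harvests, beside -0.09 over all rows.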

How the data were processed

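The authors trimmed 75-base single reads with Trimmomatic 0.36, removed rRNA reads with sortMeRNA 2.1, aligned and counted with STAR 2.7.3a on the IBSC_v2 Morex assembly, and deposited raw counts per gene in 3 columns (either strand, forward, reverse). Rows that name no gene were left out. The loci and comparisons were chosen with earlier results of these data known, and the strand classes were defined after the data were seen.

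Antisense counts were fitted with edgeR 4.0.16 (R 4.3.3), with sense gene counts as library sizes, 6 groups and, as in the study's design, the replicate number as a block, for rows above 1 rpm in at least 3 libraries. The procedure was tested on simulated data. Loci were named by rule: the 10 most abundant, the edges of the choice, the adjacent loci, up to 3 rises and 3 falls per comparison among called loci whose groups did not overlap, loci called in opposite directions on both strands, and the 2 with the lowest p where nitrate called none. HORVU0Hr1G016250, HORVU1Hr1G005100, HORVU1Hr1G053670, HORVU2Hr1G028520, HORVU2Hr1G119760, HORVU3Hr1G035590 and further comparisons of named loci were added after their values were seen. The labels tie each replicate number to 1 harvest. Deviations from the group means correlated with a median r of 0.00598 over the 34 pairs of libraries that share a number, and of -0.00883 over 101 other pairs. None of the gene IDs matched the gene table used here, so no names, positions or sequences are given. Alternatives were DESeq2 1.42.0, edgeR's likelihood ratio test, TMM factors, forward sums as library sizes, other blocks, no filter, 12 libraries, and libraries left out.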

Additional observations from a re-analysis of the deposited data

Results flagged for a closer look

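In M4 and M5, 2 loci had nitrate groups without overlap in opposite directions, HORVU6Hr1G034990 and HORVU2Hr1G119760, and 2 in the same direction. HORVU6Hr1G034990, among the loci named for nitrate, moved in opposite directions with nitrate supply in M4 and M5. In M4 the LN libraries were all higher than the HN libraries (105.8 to 116.4 against 81.0 to 92.9 rpm), and in M5 all lower (73.5 to 86.6 against 86.8 to 124.8 rpm). The response in M5 minus that in M4 was -0.84 on the log2 scale, and the joint test of the response over the 3 genotypes gave an unadjusted p of 0.000904 and an adjusted p of 0.511 in edgeR's quasi-likelihood test, so the difference did not pass the correction.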

How the results depend on the processing

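Of the fold changes of named loci that were rerun, not among them that of HORVU6Hr1G034990 in M5, none changed direction under any alternative. The median log2 fold change over the 200 loci, which lay near 0, did so with scaling: with TMM factors of the sense counts it was -0.11 for nitrate in M5 (0.01 as reported), with TMM factors of the antisense counts -0.08 there, -0.02 on average (0.04) and 0.04 between harvests (-0.05), and with forward sums -0.01 for M4 against GP (0.03), -0.02 for M4 against M5 (0.00) and -0.01 for nitrate in M5. Further changes of sign gave medians that rounded to 0.00. With no replicate block the count for M4 against M5 was 27, and with harvest season as the block 26, in place of 17; on the average nitrate response these fits gave 1 and 1 in place of 0. The block changed no other count of loci by over 1.5 times. Without the filter on low counts, 19170 rows were tested, and the nitrate counts were 3 in GP, 4 in M5, 8 on average and 1 for the difference between genotypes, with 4 between harvests, all 0 with the filter; the cause was not tested. DESeq2 gave 2 in M5, 4 on average and 2 for the difference between genotypes, and the likelihood ratio test 1 and 1 for the last 2. Leaving out 1 library at a time gave 15 to 35 loci for M4 against GP, 9 to 24 for M5 against GP and 12 to 21 for M4 against M5. It gave 0 to 1 for nitrate in M5 and 0 to 2 on average, where the 1 came without GP LN replicate 3 or M5 LN replicate 3 and the 2 without M5 LN replicate 3. The counts of calls in these runs are of the 200 loci alone, and the share of all rows called in each run is not given. The harvest comparison could not be run without a block. With 3 libraries a group and harvests not fully crossed with nitrate, small responses could not be told from the spread between libraries. Reads shared with an opposite gene are counted for both genes, and 15 opposite genes could not be assigned.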
